A study of Rattus norvegicus with 6 samples.

Results

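Potassium channel subunit genes were followed in cerebral arteries of male rats after subarachnoid haemorrhage (SAH), in which blood escapes beneath the arachnoid membrane and surrounds these vessels. The genes were chosen by symbol: every gene whose symbol starts with Kcn and a further letter, together with Abcc8 and Abcc9, which encode the sulfonylurea receptors that assemble with potassium channel pores. This gave 89 genes among the 18166 that could be named on the array, each represented by the probe set that names that gene alone and has the highest mean over all 6 arrays. Of the 97 protein-coding rat genes whose symbols meet the rule in the RefSeq table, the other 8 were not analysed here.

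The SAH group held 3 arrays, numbered 1, 4 and 5 in the labels, from SAH-operated rats whose cerebral arteries were taken 6 hours after the bleed. The sham group held 3 arrays, numbered 6, 7 and 8, from sham-operated rats, for which the labels give no time after surgery. All animals were male and all arrays were made from total RNA of cerebral artery, with no strain, age, method of bleeding or pooling of animals stated. Whether each array stands for its own animal is not stated, so the p-values cover the spread from array to array, which may be technical.

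Potassium channels set the resting potential of arterial smooth muscle. When they open, potassium leaves the cell, the membrane becomes more negative, voltage-gated calcium channels close and the artery relaxes, and when they close the artery constricts. The main classes in the arterial wall are the inward rectifiers, the ATP-sensitive channels that couple metabolism to tone, the large conductance channels opened by calcium and depolarisation, the voltage-gated channels that oppose depolarisation, and the tandem pore domain channels that carry background current. Endothelial cells carry small and intermediate conductance calcium-activated channels, whose opening spreads hyperpolarisation to the muscle.

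The values are log2 expression values processed by the authors with RMA, so a difference of 1 is a 2-fold difference, and a level of 1 gene is not set against that of another. A gene was marked as near background where its probe set did not lie above its own array's median, which was 7.31 to 7.37, on at least 3 of the 6 arrays. By this mark 46 of the 89 genes were near background and 43 were not, and Abcc8 was kept only through its 3 SAH arrays. The mark is a convention and not a detection call, since 23 background control probe sets averaged between 1.88 and 9.32, depending on their base composition. Of the 89 genes 10 had a mean above all of these controls.

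The tissue held the markers of its label. All 7 measured smooth muscle markers and all 6 measured endothelial markers lay above the background mark, as did all 6 astrocyte, all 6 macrophage and all 5 fibroblast markers, whereas 6 of 9 neuronal markers were near background. Of 5 measured oligodendrocyte markers 1 was near background, and all 5 differences, SAH minus sham, were above 0, with a median of 0.40. The arrays were whole pieces of artery, so fewer cells of a type and less RNA per cell cannot be told apart in any difference below. The mean over smooth muscle markers was 11.66, 11.77 and 11.63 in SAH arrays 1, 4 and 5, against 12.08, 12.08 and 11.88 in sham arrays 6, 7 and 8 (exact two-sided permutation p = 0.1, the smallest that 3 against 3 arrays allow). At the same permutation p of 0.1, pericyte and fibroblast marker means were also lower in SAH. The pericyte markers were uneven, with a median difference of -0.05, 4 below 0 and 2 above. Cspg4 differed by -0.93 and Notch3 by -0.67, and the others by -0.06 to 0.10. Oligodendrocyte and T and NK cell marker means were higher in SAH, again at this p. The median difference was -0.24 over the endothelial and -0.45 over the macrophage markers, with 5 of 6 below 0 in each list. The mean over 8 neutrophil markers was 8.99, 9.13 and 10.38 in SAH arrays 1, 4 and 5, against 7.01, 7.14 and 9.72 in sham arrays 6, 7 and 8 (exact two-sided permutation p = 0.3). The neutrophil marker mean served as a covariate in an alternative fit given below. The part of the other marker levels in the results on potassium channels was not tested.

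A single potassium channel gene passed the test between SAH and sham arteries. Kcnh2, which encodes the pore of the rapid delayed rectifier known from the heart, fell to 2.13-fold lower after SAH. No member rose, while 9 of the 89 were higher and 7 lower at an unadjusted p under 0.05 in limma. The called share of 1.12% stood beside 1.29% of all 18166 genes called, with 0.963% called higher and 0.33% called lower (limma, Benjamini-Hochberg adjusted p under 0.05). The share under an unadjusted 0.05 was 18% of the members and 18.6% of all genes, 8.16% higher and 10.5% lower, so the share of members that differed was near that of all genes.

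The differences of most members were small. Over the 89 genes the median difference, SAH minus sham, was -0.01 on the log2 scale, with 47 below 0 and 42 above 0, beside a median of -0.01 over all genes. In 56 of the 89 the difference was under 0.2 in size. The differences of 1 or more numbered 4, those of Kcnk2, Kcnj13, Kcnh2 and Abcc9, and each of these read lower in SAH arteries. Such differences made up 4.49% of the members and 2.03% of all genes. The SAH and sham values did not overlap for 20 members, 11 of them higher and 9 lower in SAH arteries, against 26.8% of all genes, 11.4% higher and 15.4% lower.

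**Figure D1:**
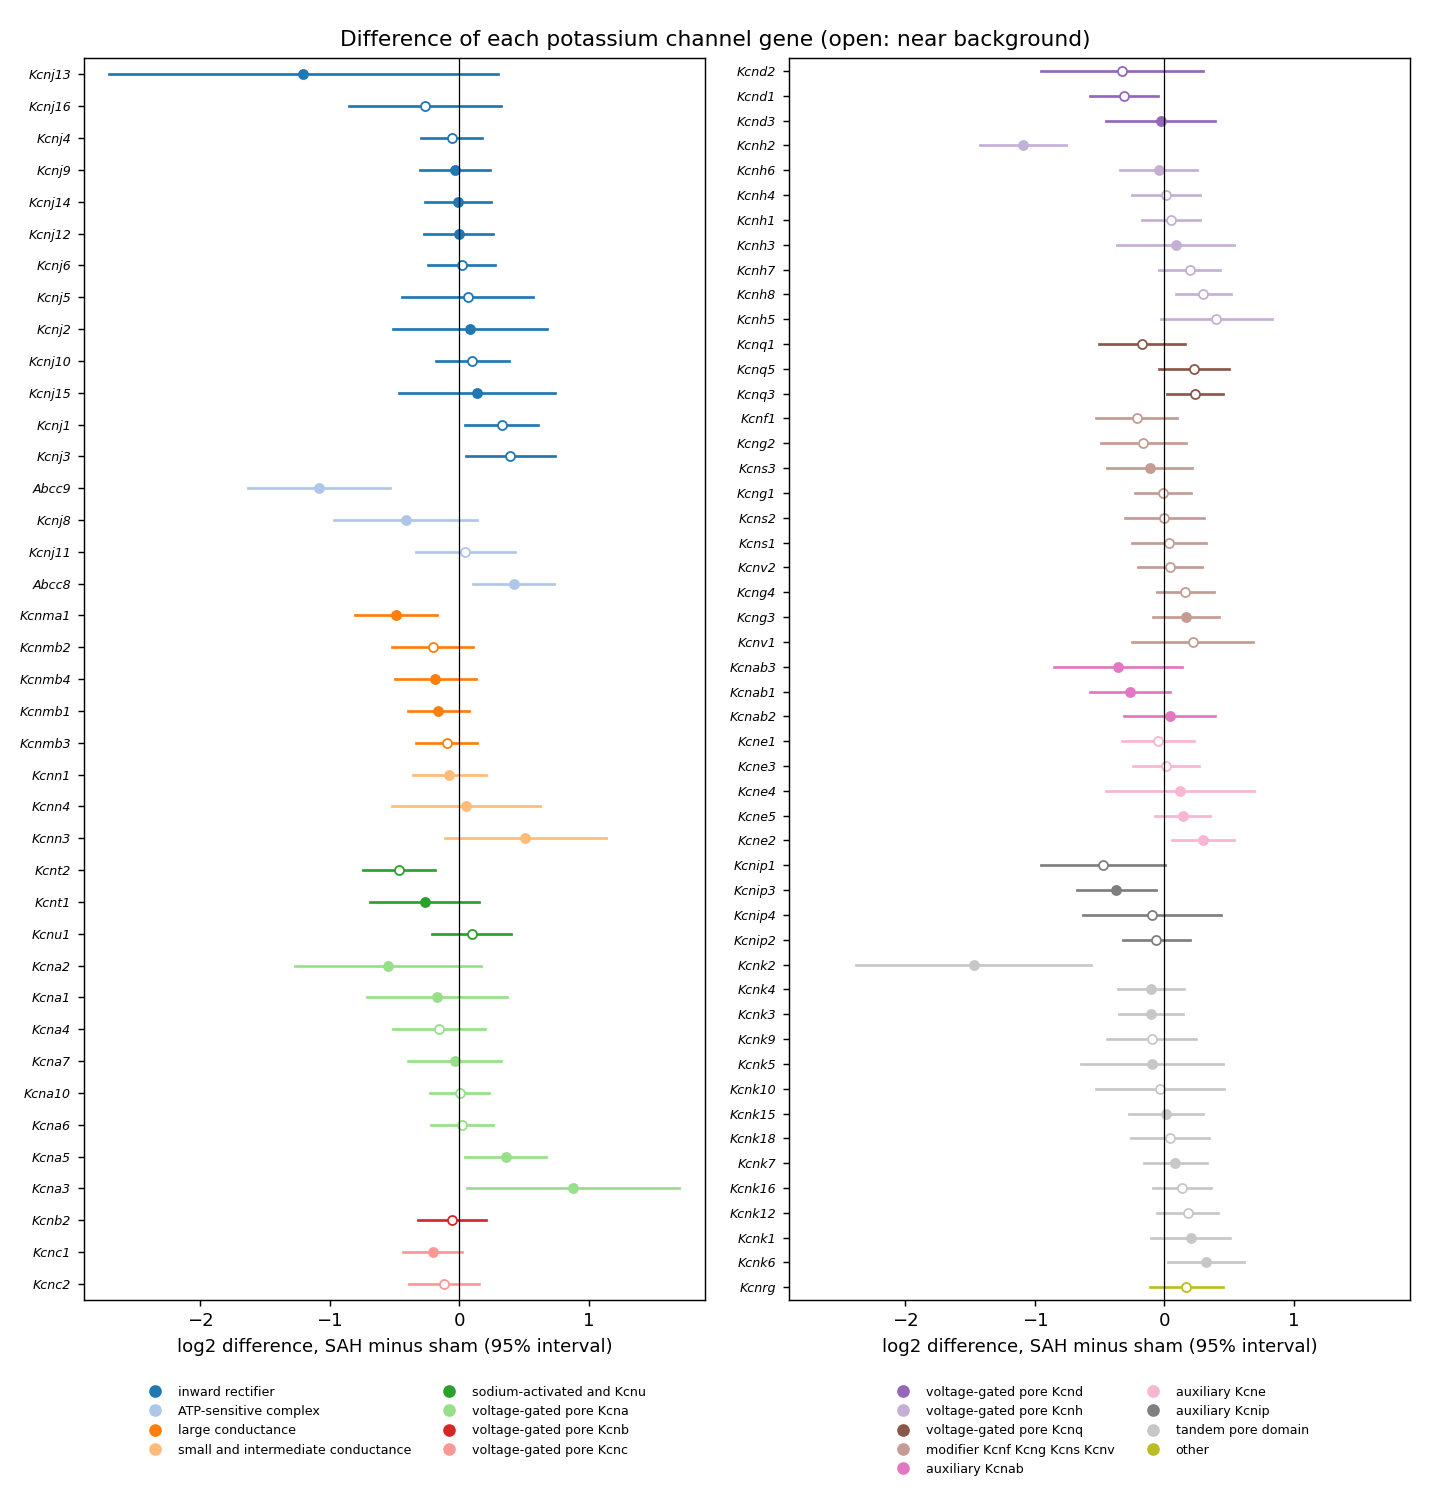
Log2 difference, SAH minus sham, of each of the 89 potassium channel genes with its 95% interval from limma, grouped by channel family and coloured as in the legend, with open points for genes near background. Kcnk2, Kcnj13, Kcnh2 and Abcc9 lie farthest left, in that order, and of these only the interval of Kcnj13 spans 0.

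Kcnh2 encodes a voltage-gated pore that closes slowly and carries repolarising current, and its product is known as the target of many drugs that prolong the cardiac action potential. It read 8.30, 8.01 and 7.81 in SAH arrays 1, 4 and 5, against 9.18, 9.13 and 9.08 in sham arrays 6, 7 and 8 (probe set 17780608). Every SAH value lay below every sham value, and the 3 sham values lay close together. All of these values lay within the range of the background control means given above. The means were 8.04 ± 0.25 in SAH and 9.13 ± 0.05 in sham arteries (SD, n = 3 each), a difference of -1.09 ± 0.14 (SE; limma adjusted p = 0.0293, 95% interval -1.42 to -0.76). The call was not kept in every fit: the adjusted p was 0.130 when SAH array 4 was left out, 0.0808 when SAH array 5 was, and 0.170, 0.146 and 0.0879 when sham arrays 6, 7 and 8 were left out in turn. The differences in these fits lay between -1.12 and -0.97. It held without SAH array 1, at -1.22 (limma adjusted p = 0.00818). With the neutrophil marker mean of each array as a covariate the difference was -0.97 ± 0.17 (SE) and the adjusted p 0.155.

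The other 7 measured Kcnh genes did not pass and differed by -0.05 to 0.40. Kcnh8, a voltage-gated pore gene of the same family and near background here, read 7.12, 7.21 and 7.15 in SAH arrays 1, 4 and 5, against 6.85, 6.82 and 6.92 in sham arrays 6, 7 and 8. These groups did not overlap, and the difference was 0.30 ± 0.09 (SE; limma adjusted p = 0.205). Kcnh6, the nearest relative of Kcnh2 measured here along with Kcnh7, differed by -0.05, with a 95% interval of -0.34 to 0.25. Kcnh7, near background, differed by 0.20.

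The vascular ATP-sensitive channel is built from the pore encoded by Kcnj8 and the sulfonylurea receptor encoded by Abcc9, which binds nucleotides and the opener drugs used to dilate arteries. Abcc9 read 8.996, 9.75 and 9.50 in SAH arrays 1, 4 and 5, against 10.35, 10.85 and 10.30 in sham arrays 6, 7 and 8 (probe set 17796257). All 3 SAH values were below all 3 sham values. The means were 9.42 ± 0.39 in SAH and 10.50 ± 0.31 in sham arteries (SD, n = 3 each), a difference of -1.08 ± 0.23 (SE; 95% interval -1.63 to -0.53), which did not pass over all probe sets (limma adjusted p = 0.108). It passed when fewer features were tested, with dim probe sets left out (adjusted p = 0.0464) or with 1 value per named gene (0.0463), and over its 13 alternatives the adjusted p ranged from 0.0463 to 0.406.

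Kcnj8 differed less than Abcc9 and less evenly. It read 9.01, 9.99 and 9.44 in SAH arrays 1, 4 and 5, against 9.87, 9.88 and 9.94 in sham arrays 6, 7 and 8. SAH array 1 lay lowest, SAH array 4 lay above all sham values, and the sham values lay close together. The difference was -0.41 ± 0.23 (SE; 95% interval -0.97 to 0.14; limma adjusted p = 0.484), and it was -0.18 without SAH array 1 and -0.67 without SAH array 4. In Abcc9 too SAH array 1 was the lowest and SAH array 4 the highest of the SAH arrays. The means over 6 markers of pericytes, a cell type known to express Kcnj8 and Abcc9, 2 of them near background, were 9.80, 9.60 and 9.75 in SAH arrays 1, 4 and 5, against 9.98, 10.08 and 9.86 in sham arrays 6, 7 and 8. The median difference of these markers was -0.05, since the lower SAH means came mostly from Cspg4 and Notch3.

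Kcnj8 and Abcc9 are neighbours in the rat gene order on chromosome 4. Their promoters are shown because the products form 1 channel while the measured differences were unequal, though that inequality was not tested. Each sequence is the 250 bases before the annotated gene start, in RefSeq's GRCr8 build and read 5′ to 3′ on the gene's strand, with capitals marking the GC box GGGCGG on either strand.
Abcc9, chr4:177386349-177386598, minus strand: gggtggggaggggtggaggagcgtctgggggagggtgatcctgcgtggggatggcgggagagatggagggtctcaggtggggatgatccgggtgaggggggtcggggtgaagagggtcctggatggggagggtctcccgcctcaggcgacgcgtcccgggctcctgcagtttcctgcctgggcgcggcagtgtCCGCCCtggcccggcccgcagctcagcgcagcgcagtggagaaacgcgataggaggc
Kcnj8, chr4:177246549-177246798, minus strand: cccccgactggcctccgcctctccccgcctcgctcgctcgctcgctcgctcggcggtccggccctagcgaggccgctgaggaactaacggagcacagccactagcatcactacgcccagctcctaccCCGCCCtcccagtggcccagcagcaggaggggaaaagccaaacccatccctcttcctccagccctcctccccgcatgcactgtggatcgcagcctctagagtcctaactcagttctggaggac
Both sequences were rich in G and C, at 71.2% for Abcc9 and 66.8% for Kcnj8. Each held 1 GC box, lying 57 to 52 bases before the start in Abcc9 and 123 to 118 bases before it in Kcnj8.

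The pancreatic and neuronal form of the ATP-sensitive channel uses Kcnj11 for the pore and Abcc8 for the receptor, which are likewise neighbours, on chromosome 1. Abcc8 read 7.40, 7.74 and 7.67 in SAH arrays 1, 4 and 5, against 7.02, 7.23 and 7.29 in sham arrays 6, 7 and 8. The groups did not overlap, with all sham values below their array medians, and the difference was 0.42 ± 0.13 (SE; 95% interval 0.11 to 0.73; limma adjusted p = 0.219). Kcnj11 was near background and differed by 0.05 (95% interval -0.33 to 0.43). Of the 4 genes of the ATP-sensitive complexes none passed, with 1 higher and 1 lower at an unadjusted p under 0.05.

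**Figure D2:**
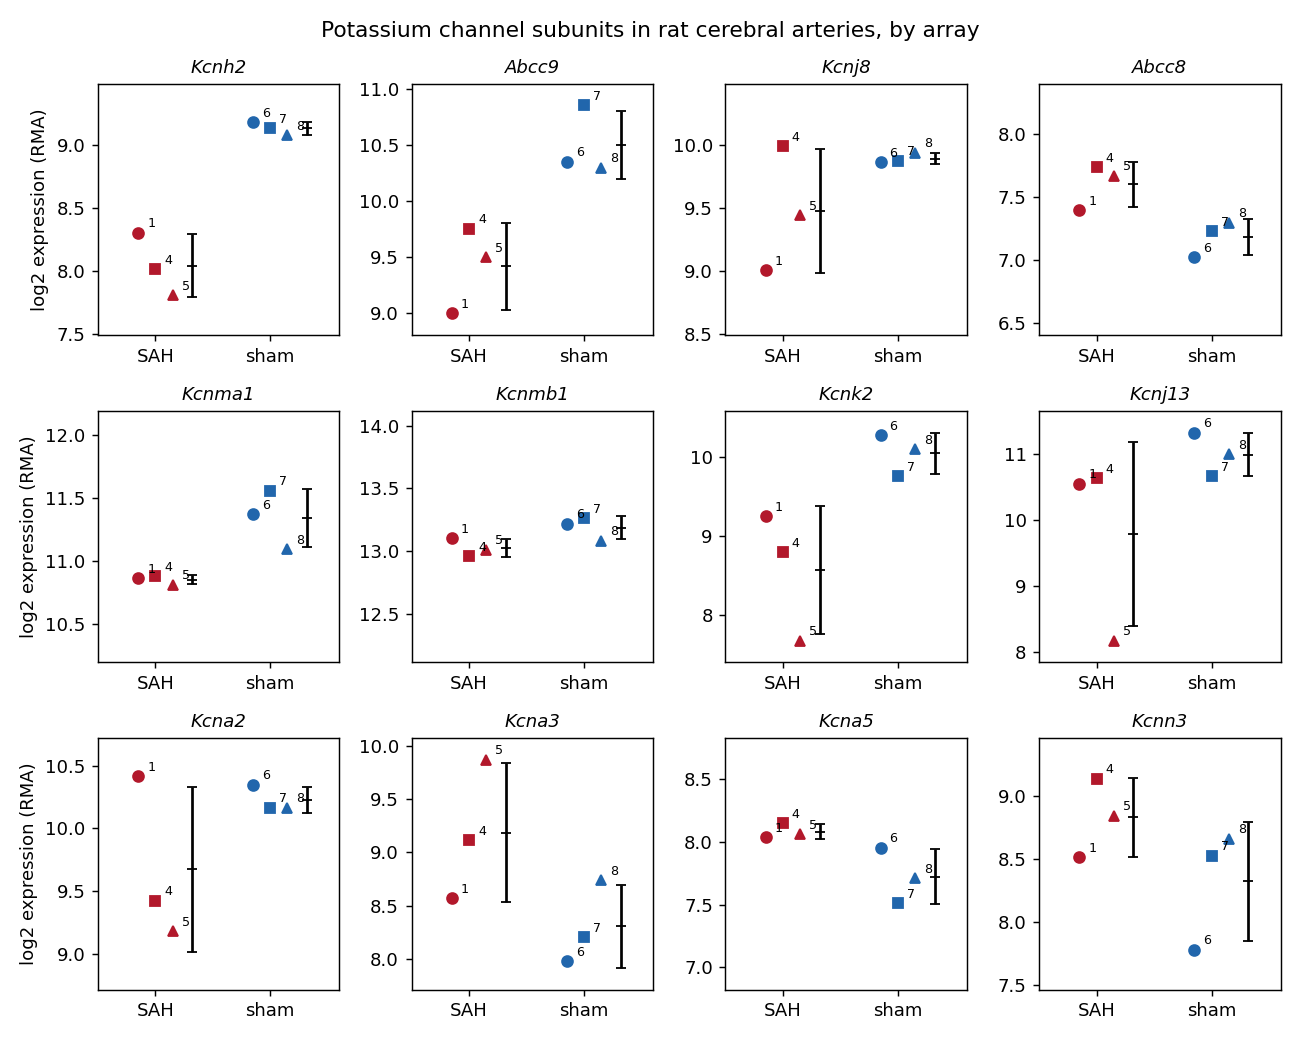
Log2 expression (RMA) of 12 potassium channel genes in each array, SAH at left in red and sham at right in blue, with the array numbers beside the points and the mean and SD of 3 arrays as black bars; each panel has its own vertical range of at least 2 units. Kcnh2, Abcc9, Kcnk2 and Kcnma1 show SAH values below all sham values, and in Kcnj13 SAH array 5, at 8.18, lies far from the other 5 arrays.

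The large conductance calcium-activated channel is the main brake on arterial constriction, with the pore encoded by Kcnma1 and the smooth muscle regulatory subunit, which raises calcium sensitivity, encoded by Kcnmb1. Kcnma1 read 10.86, 10.88 and 10.81 in SAH arrays 1, 4 and 5, against 11.37, 11.56 and 11.10 in sham arrays 6, 7 and 8 (probe set 17696933). The SAH values lay within a narrow band below all sham values. The difference was -0.49 ± 0.13 (SE; 95% interval -0.81 to -0.17), or 1.41-fold lower, and did not pass (limma adjusted p = 0.174). With the neutrophil covariate it was -0.31 ± 0.14 (SE). The 7 smooth muscle markers had a median difference of -0.20, with 6 below 0, and ranged widely. Smtn, which encodes the contractile protein smoothelin, fell by 1.18 ± 0.13 (SE; limma adjusted p = 0.0197). The others did not pass, at -0.40 for Myh11, -0.26 for Lmod1, -0.20 for Des, -0.15 for Tagln, -0.11 for Mylk and 0.02 for Synpo2.

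Kcnmb1 read 13.10, 12.96 and 13.01 in SAH arrays 1, 4 and 5, against 13.22, 13.26 and 13.09 in sham arrays 6, 7 and 8. The groups overlapped at SAH array 1 and sham array 8, and the difference was -0.16 ± 0.10 (SE; 95% interval -0.40 to 0.07; limma adjusted p = 0.527). The other regulatory subunit genes Kcnmb2, Kcnmb3 and Kcnmb4 differed by -0.21, -0.10 and -0.18, with Kcnmb2 and Kcnmb3 near background. All 5 genes of this channel had differences below 0, beside 9567 of all 18166 genes. None of the 5 passed the threshold, and 1, Kcnma1, had an unadjusted p under 0.05 in limma.

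Among the channels opened by calcium without depolarisation, Kcnn3 and Kcnn4 encode the small and intermediate conductance channels of arterial endothelium. Kcnn3 read 8.52, 9.14 and 8.85 in SAH arrays 1, 4 and 5, against 7.78, 8.53 and 8.66 in sham arrays 6, 7 and 8. The groups overlapped, with sham array 6 far below the rest, and the difference of 0.51 ± 0.26 (SE; 95% interval -0.11 to 1.13; limma adjusted p = 0.442) was 0.24 without sham array 6. Kcnn4 read 8.59, 7.95 and 8.92 in SAH arteries and 8.31, 8.61 and 8.38 in sham arteries, a difference of 0.05 (95% interval -0.52 to 0.63). Kcnn1, a small conductance channel gene known from neurons, differed by -0.08. None of the 3 passed, at an adjusted or an unadjusted p under 0.05 in limma.

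The inward rectifiers of the arterial wall, encoded mainly by Kcnj2 and Kcnj12, let extracellular potassium dilate small arteries. Kcnj2 read 8.18, 8.00 and 8.88 in SAH arrays 1, 4 and 5, against 8.07, 8.15 and 8.58 in sham arrays 6, 7 and 8. The groups overlapped throughout, and the difference was 0.08 ± 0.25 (SE; 95% interval -0.51 to 0.68). Kcnj12 had nearly equal group means, at 8.97, 8.77 and 8.95 in SAH and 9.02, 8.93 and 8.76 in sham arteries. Its difference was -0.00, with a 95% interval of -0.27 to 0.26.

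Kcnj13, which encodes an inward rectifier known from the choroid plexus and retinal pigment epithelium, stood out through 1 array and was chosen after its values were seen. It read 10.55, 10.64 and 8.18 in SAH arrays 1, 4 and 5, against 11.32, 10.66 and 10.99 in sham arrays 6, 7 and 8 (probe set 17866251). SAH array 5 lay far below the rest, whereas SAH arrays 1 and 4 lay only just below sham array 7, so the groups did not overlap by a narrow margin. The difference was -1.21 ± 0.63 (SE; 95% interval -2.71 to 0.30; limma adjusted p = 0.451), with an SD of 1.40 among the SAH arrays and 0.33 among the sham arrays. Of 8 choroid plexus markers, listed after the data were seen, 6 were near background, and 5 of the 8 differences were below 0. Ttr, among the most abundant transcripts of that tissue, read 8.60, 9.51 and 8.59 in SAH arteries and 8.45, 8.86 and 8.75 in sham arteries. Aqp1, a water channel gene also known from endothelium and the other marker above the mark, read 9.28, 9.34 and 8.66 in SAH arrays 1, 4 and 5, against 9.93, 8.99 and 9.31 in sham arrays 6, 7 and 8, with SAH array 5 the lowest of the 6. The part of choroid plexus RNA in the Kcnj13 values was not tested.

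Of the 13 inward rectifier genes outside the ATP-sensitive complexes none passed, and 7 were near background. The epithelial channel gene Kcnj1 differed by 0.33 ± 0.12 (SE) with groups that did not overlap, and the G protein-gated channel gene Kcnj3 by 0.40 ± 0.15, both near background and both at an unadjusted p under 0.05 in limma (adjusted p = 0.276 and 0.281). Kcnj10, the main glial inward rectifier gene, was near background at 7.12, 6.97 and 7.03 in SAH arteries, against 6.74, 7.03 and 7.05 in sham arteries.

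Tandem pore domain channels carry background current, and the product of Kcnk2, TREK-1, is opened by stretch, by polyunsaturated fatty acids and by acid inside the cell. Kcnk2 had the largest difference of all members. It read 9.25, 8.80 and 7.68 in SAH arrays 1, 4 and 5, against 10.28, 9.76 and 10.10 in sham arrays 6, 7 and 8 (probe set 17687521). The groups did not overlap, and SAH array 5 lay lowest. The means were 8.58 ± 0.81 in SAH and 10.05 ± 0.26 in sham arteries (SD, n = 3 each), a difference of -1.47 ± 0.38 (SE; 95% interval -2.38 to -0.57), which did not pass (limma adjusted p = 0.157). Without SAH array 5 it was -1.02 ± 0.21 (SE; adjusted p = 0.197, in a range of 0.0624 to 0.533 over 13 alternatives), and with the neutrophil covariate -1.18 ± 0.48.

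The other 12 tandem pore domain genes differed by far less. Kcnk3, an acid-sensitive background channel gene, read 8.77, 8.55 and 8.68 in SAH arteries and 8.80, 8.82 and 8.68 in sham arteries, a difference of -0.10 (95% interval -0.35 to 0.14). Kcnk6 read 8.71, 9.08 and 8.75 in SAH arrays 1, 4 and 5, against 8.53, 8.56 and 8.49 in sham arrays 6, 7 and 8. Its groups did not overlap, with a difference of 0.32 ± 0.12 (SE; limma adjusted p = 0.303). The difference was 0.20 without SAH array 4, and 0.26 as the mean of both probe sets of this gene, the only member with more than 1. Of the 13 genes none passed, and at an unadjusted p under 0.05 Kcnk6 was higher and Kcnk2 lower.

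Voltage-gated channels of the Kcna family repolarise arterial smooth muscle and limit its constriction. Kcna2 read 10.42, 9.43 and 9.18 in SAH arrays 1, 4 and 5, against 10.35, 10.17 and 10.16 in sham arrays 6, 7 and 8. SAH array 1 lay above all sham values, whereas SAH arrays 4 and 5 lay below all of them. The difference was -0.55 ± 0.30 (SE; 95% interval -1.27 to 0.17; limma adjusted p = 0.473), and without SAH array 1 it was -0.92 ± 0.13 and passed (adjusted p = 0.0280, in a range of 0.0280 to 0.883 over 13 alternatives).

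Kcna3, whose product is the main voltage-gated potassium channel of T lymphocytes and is also found in macrophages and smooth muscle, read 8.57, 9.12 and 9.87 in SAH arrays 1, 4 and 5, against 7.98, 8.20 and 8.74 in sham arrays 6, 7 and 8. SAH array 5 lay highest, sham array 8 was the highest of its group, and the groups overlapped at SAH array 1. The difference was the largest above 0 among the members, at 0.88 ± 0.34 (SE; 95% interval 0.06 to 1.69; limma adjusted p = 0.310). SAH array 5 and sham array 8 were also the highest of their groups in the neutrophil marker mean given above, and with that mean as a covariate the difference was 0.32 ± 0.29. Which cells held the Kcna3 RNA was not tested. The mean over 5 T and NK cell markers, 3 of them near background, was 7.16, 7.05 and 7.15 in SAH arrays 1, 4 and 5, against 6.86, 6.50 and 6.75 in sham arrays 6, 7 and 8. Over 6 macrophage markers the mean was 8.99, 9.11 and 8.57 in SAH arrays 1, 4 and 5. In sham arrays 6, 7 and 8 it was 9.48, 9.06 and 9.86. Of these 6 macrophage markers 5 had differences below 0, with a median of -0.45.

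Kcna5, a delayed rectifier gene of smooth muscle, read 8.03, 8.15 and 8.06 in SAH arrays 1, 4 and 5, against 7.95, 7.51 and 7.71 in sham arrays 6, 7 and 8. The groups did not overlap and nearly met at sham array 6. The difference was 0.36 ± 0.13 (SE; 95% interval 0.05 to 0.67; limma adjusted p = 0.282). Kcna1 read 9.50, 9.45 and 9.44 in SAH arteries and 10.11, 9.15 and 9.65 in sham arteries, where the spread lay in the sham group, and differed by -0.17. Of the 8 Kcna genes none passed, with 2 higher at an unadjusted p under 0.05 in limma.

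Kcna3 and Kcna2 are direct neighbours in the rat gene order on chromosome 2, and their differences, neither of which passed, had opposite signs. Their promoters are shown for that reason, as the 250 bases before the annotated start in RefSeq's GRCr8 build, with the GC box GGGCGG in capitals on either strand.
Kcna3, chr2:197320074-197320323, plus strand: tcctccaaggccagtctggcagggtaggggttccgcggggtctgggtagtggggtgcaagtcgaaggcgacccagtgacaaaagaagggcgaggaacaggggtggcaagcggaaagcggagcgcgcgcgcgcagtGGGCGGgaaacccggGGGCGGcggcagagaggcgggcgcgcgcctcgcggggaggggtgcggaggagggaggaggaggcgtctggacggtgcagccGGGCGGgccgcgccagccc
Kcna2, chr2:197393280-197393529, plus strand: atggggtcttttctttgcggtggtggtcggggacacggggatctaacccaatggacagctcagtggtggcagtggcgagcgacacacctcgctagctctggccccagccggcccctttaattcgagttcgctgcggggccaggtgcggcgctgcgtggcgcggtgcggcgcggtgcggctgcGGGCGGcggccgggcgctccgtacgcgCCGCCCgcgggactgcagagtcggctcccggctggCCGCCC
The Kcna3 sequence was 73.6% and the Kcna2 sequence 72.4% G and C, and each held 3 GC boxes. The table held promoters for 61 of the 89 genes, in 67 entries. A GC box occurred in 49.3% of these entries and in 30.5% of all 33469 promoters of the same length. The CArG box, the motif of serum response factor, occurred in none of the 67 entries and in 1.5% of all promoters. The core of the interferon-stimulated response element occurred in 1.49% of the entries, that of Kcnip3, and in 3.41% of all promoters. TTCNNNGAA, the motif of STAT factors, occurred in 7.46% of the entries and 7.67% of all promoters, and TGANTCA, the motif of AP-1, in 2.99% and 6.34%. All motifs were searched on both strands, and overlaps between motifs were not removed. A match is a description of these letters only.

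The other voltage-gated pore genes were mostly near background, and none passed. Of the 35 pore and modifier genes, Kcna and Kcnh included, 23 were near background, and their median difference was -0.00. Kcnc1, of the fast-spiking type, read 7.53, 7.50 and 7.44 in SAH arrays 1, 4 and 5, against 7.61, 7.69 and 7.80 in sham arrays 6, 7 and 8, a difference of -0.21 ± 0.10 (SE; limma adjusted p = 0.398) with groups that did not overlap. Kcnd1, which encodes a transient outward channel, was near background at 7.20, 7.02 and 6.93 in SAH and 7.29, 7.46 and 7.33 in sham arteries, and differed by -0.31 ± 0.11 (limma adjusted p = 0.269). Kcnb2 differed by -0.06 (95% interval -0.32 to 0.20).

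The Kcnq genes encode channels that open near the resting potential and are known to dilate cerebral arteries when activated. All 3 measured were near background. Kcnq3 read 7.07, 7.16 and 7.17 in SAH arrays 1, 4 and 5, against 6.92, 6.85 and 6.92 in sham arrays 6, 7 and 8, with a difference of 0.23 ± 0.09 (SE; limma adjusted p = 0.303) and no overlap. Kcnq5 differed by 0.23 ± 0.11 and Kcnq1 by -0.17 ± 0.14. The 10 modifier genes of the Kcnf, Kcng, Kcns and Kcnv groups, whose products form no channels on their own and alter those of Kcnb, differed by -0.21 to 0.22, with none at an adjusted or unadjusted p under 0.05 in limma. Of the modifier genes 8 were near background, among them Kcng4, which had the smallest p, at 0.16 ± 0.09 (SE). Kcns3, the modifier gene most often described in smooth muscle, differed by -0.11 (95% interval -0.44 to 0.22).

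The auxiliary subunits of voltage-gated channels numbered 12, and none passed. Kcnab1, whose product binds Kcna pores inside the cell, read 9.84, 9.72 and 10.01 in SAH arrays 1, 4 and 5, against 10.003, 10.32 and 10.05 in sham arrays 6, 7 and 8, a difference of -0.27 ± 0.13 (SE; 95% interval -0.57 to 0.04). SAH array 5 lay within a hair of sham array 6, so the groups overlapped. Kcne4, which encodes a small membrane subunit that modulates Kcnq and Kcna pores in arteries, read 10.47, 10.17 and 10.38 in SAH and 10.04, 9.84 and 10.77 in sham arteries. Sham array 8 was the highest of all 6, and the difference of 0.12 (95% interval -0.45 to 0.69) was 0.40 without sham array 8.

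Kcne2, which encodes a partner of the Kcnh2 and Kcnq1 pores, read 8.00, 8.04 and 8.10 in SAH arrays 1, 4 and 5, against 7.72, 7.65 and 7.87 in sham arrays 6, 7 and 8. The groups did not overlap, and the difference was 0.30 ± 0.10 (SE; 95% interval 0.06 to 0.54; limma adjusted p = 0.250), opposite in sign to that of Kcnh2. Kcnip3, a calcium-binding partner of Kcnd pores that also acts as a transcriptional repressor, read 9.28, 8.93 and 8.98 in SAH arrays 1, 4 and 5, against 9.39, 9.56 and 9.36 in sham arrays 6, 7 and 8. All SAH values were lower, with SAH array 1 next to the sham arrays, and the difference was -0.37 ± 0.13 (limma adjusted p = 0.254).

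The channels opened by sodium inside the cell are encoded by Kcnt1 and Kcnt2. Kcnt2 was near background, at 6.01, 5.79 and 6.13 in SAH arrays 1, 4 and 5, against 6.43, 6.40 and 6.50 in sham arrays 6, 7 and 8, without overlap and with a difference of -0.46 ± 0.12 (SE; limma adjusted p = 0.148). Kcnt1 read 9.77, 9.96 and 9.37 in SAH and 10.11, 9.75 and 10.04 in sham arteries, with overlapping groups and a difference of -0.27 ± 0.18. Kcnrg, which encodes a regulator of voltage-gated channel assembly and not a channel subunit, was near background and differed by 0.17 ± 0.12.

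The members varied slightly more among the SAH arrays than among the sham arrays. Over the 89 genes the median SD was 0.15 among SAH arrays and 0.12 among sham arrays, close to the medians of 0.15 and 0.11 over all genes. The largest SD among SAH arrays of members above the background mark were 1.40 for Kcnj13, 0.81 for Kcnk2, 0.65 for Kcna2, 0.65 for Kcna3, 0.49 for Kcnj8 and 0.49 for Kcnn4. SAH array 5 held the lowest of all 6 values for Kcnj13, Kcnk2 and Kcna2 and the highest for Kcna3, while SAH array 1 held the lowest for Kcnj8 and Abcc9.

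Markers of the leptomeninges, the thin membranes that carry the cerebral arteries, read lowest in SAH array 5. The 8 markers of this list, chosen after the data were seen, were all above background, and their median departure from the sham mean was -0.16, -0.42 and -1.49 in SAH arrays 1, 4 and 5, against 0.27, -0.28 and 0.06 in sham arrays 6, 7 and 8. The departure of Kcnj13 was -0.44, -0.36 and -2.82 in SAH arrays 1, 4 and 5, against 0.33, -0.33 and 0.00 in sham arrays 6, 7 and 8. That of Kcnk2 was -0.80, -1.25 and -2.37 in SAH arrays 1, 4 and 5, against 0.23, -0.29 and 0.05 in sham arrays 6, 7 and 8. Slc6a13, a transporter gene with the largest difference of that list at -1.20, read 11.99, 11.51 and 10.06 in SAH arteries, against 12.48, 12.21 and 12.47 in sham arteries. The differences of the other markers ran from -0.08 for Ptgds to -0.86 for Aldh1a2. In all of these SAH array 5 was the lowest of the 6, and sham array 7 was the lowest of the sham arrays. Low values in SAH array 5 were not particular to this list. The median departure of the macrophage markers was -0.33, -0.45 and -0.82 in SAH arrays 1, 4 and 5. In sham arrays 6, 7 and 8 it was 0.03, -0.35 and 0.47. The part of the leptomeningeal or macrophage markers in these results was not tested.

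**Figure D3:**
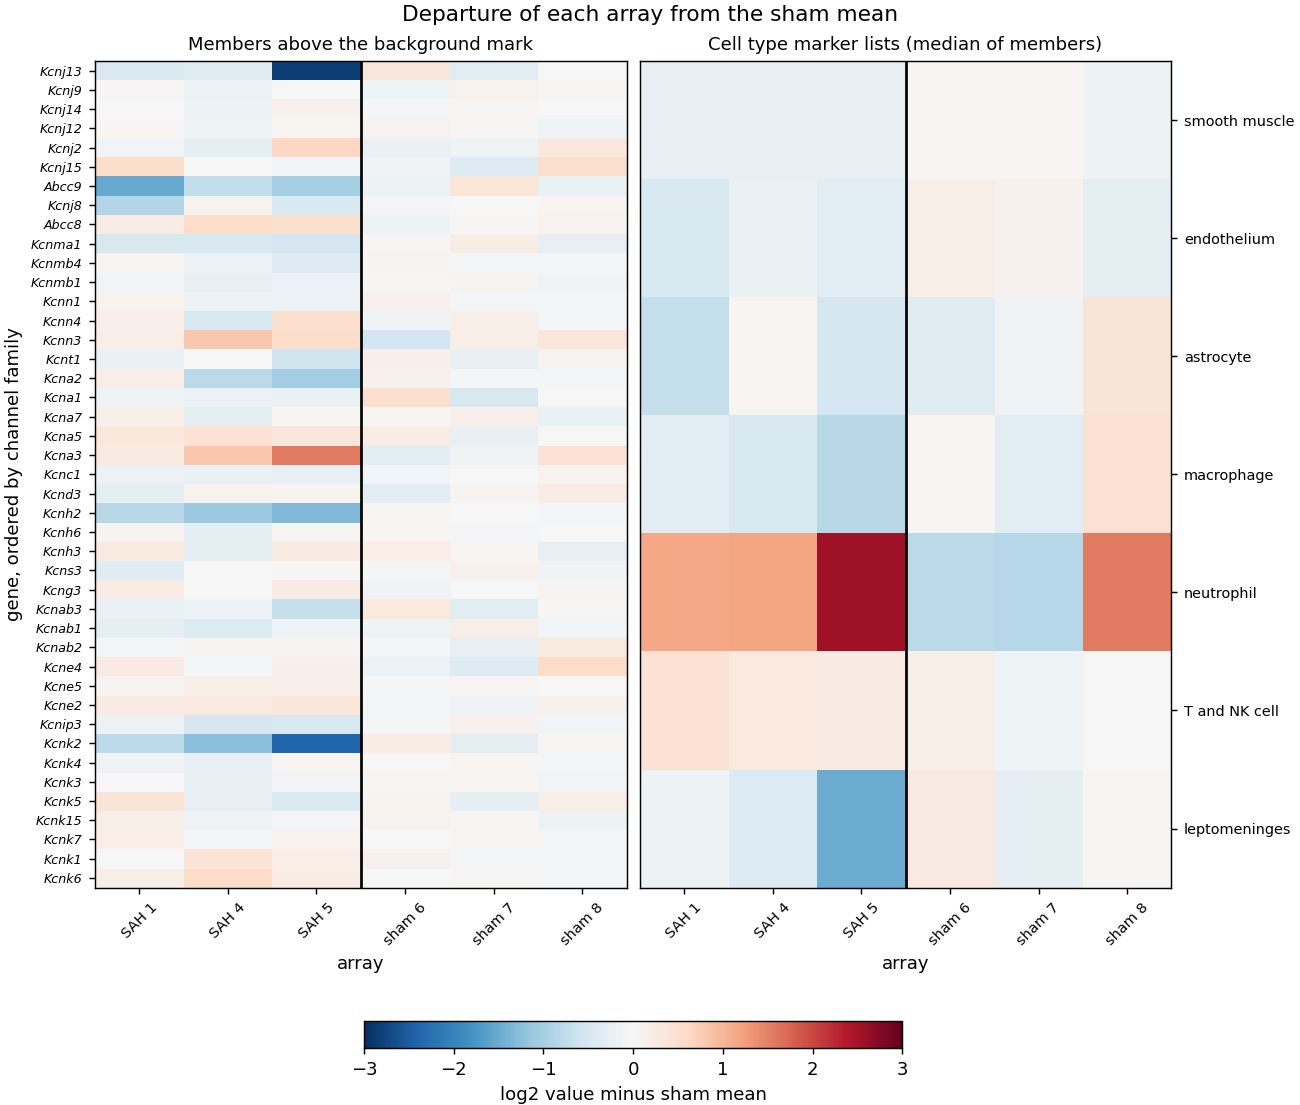
Log2 value minus the sham mean, blue for lower and red for higher, in SAH arrays 1, 4 and 5 at left of the black line and sham arrays 6, 7 and 8 at right, for the 43 potassium channel genes above the background mark (left panel) and as the median over each of 7 cell type marker lists (right panel). Kcnh2, Abcc9 and Kcnk2 are blue in all 3 SAH arrays, Kcnj13 and the leptomeningeal list are bluest in SAH array 5, and the neutrophil list is reddest in SAH array 5 and sham array 8.

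Partners of potassium channels in setting the membrane potential were counted from a list of 41 genes, of which 36 were measured. Of these 1 fell, none rose and 35 did not pass, beside 1.29% of all genes called. At an unadjusted p under 0.05 in limma 6 were higher and 6 lower, beside 8.16% and 10.5% of all genes, and the median difference was -0.04, beside -0.01 over all genes. Cacna1d, which encodes a pore of the L-type calcium channels that open at fairly negative potentials, read 7.34, 6.94 and 7.06 in SAH arrays 1, 4 and 5, against 8.13, 8.11 and 8.16 in sham arrays 6, 7 and 8. The groups lay well apart, with a difference of -1.02 ± 0.13 (SE; limma adjusted p = 0.0242). Only the sham values lay clear of their array medians, which were 7.34, 7.31 and 7.37 in SAH arrays 1, 4 and 5. Cacna1c, the main L-type pore gene of arterial smooth muscle, differed by 0.08 ± 0.12.

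The kinases that act on potassium channels gave values of both signs. Prkaca, a catalytic subunit of protein kinase A, which opens ATP-sensitive and large conductance channels, differed by -0.87 ± 0.16 (SE; limma adjusted p = 0.0811). Prkce, a protein kinase C isoform, differed by 0.70 ± 0.13 (limma adjusted p = 0.0767). Prkca, another protein kinase C isoform, differed by -0.51 ± 0.17 (limma adjusted p = 0.236). Prkg1, the cyclic GMP-dependent kinase that opens the large conductance channel, differed by -0.02 ± 0.12. The T-type pore genes differed in opposite directions, Cacna1g by -0.57 ± 0.12 and Cacna1h by 0.75 ± 0.25 (SE; limma adjusted p = 0.103 and 0.239). Among other cation channel genes the values were 0.88 ± 0.21 for the cation channel gene Trpc6, -0.61 ± 0.16 for the ryanodine receptor gene Ryr2 and 0.54 ± 0.14 for the stretch-activated channel gene Piezo1, none past the threshold (limma adjusted p = 0.134, 0.165 and 0.160). The remaining genes at an unadjusted p under 0.05 were the cation channel gene Trpm4 at -0.36, the ubiquitin ligase gene Nedd4l at 0.36 and the connexin gene Gja4 at 0.64.

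**Figure D4:**
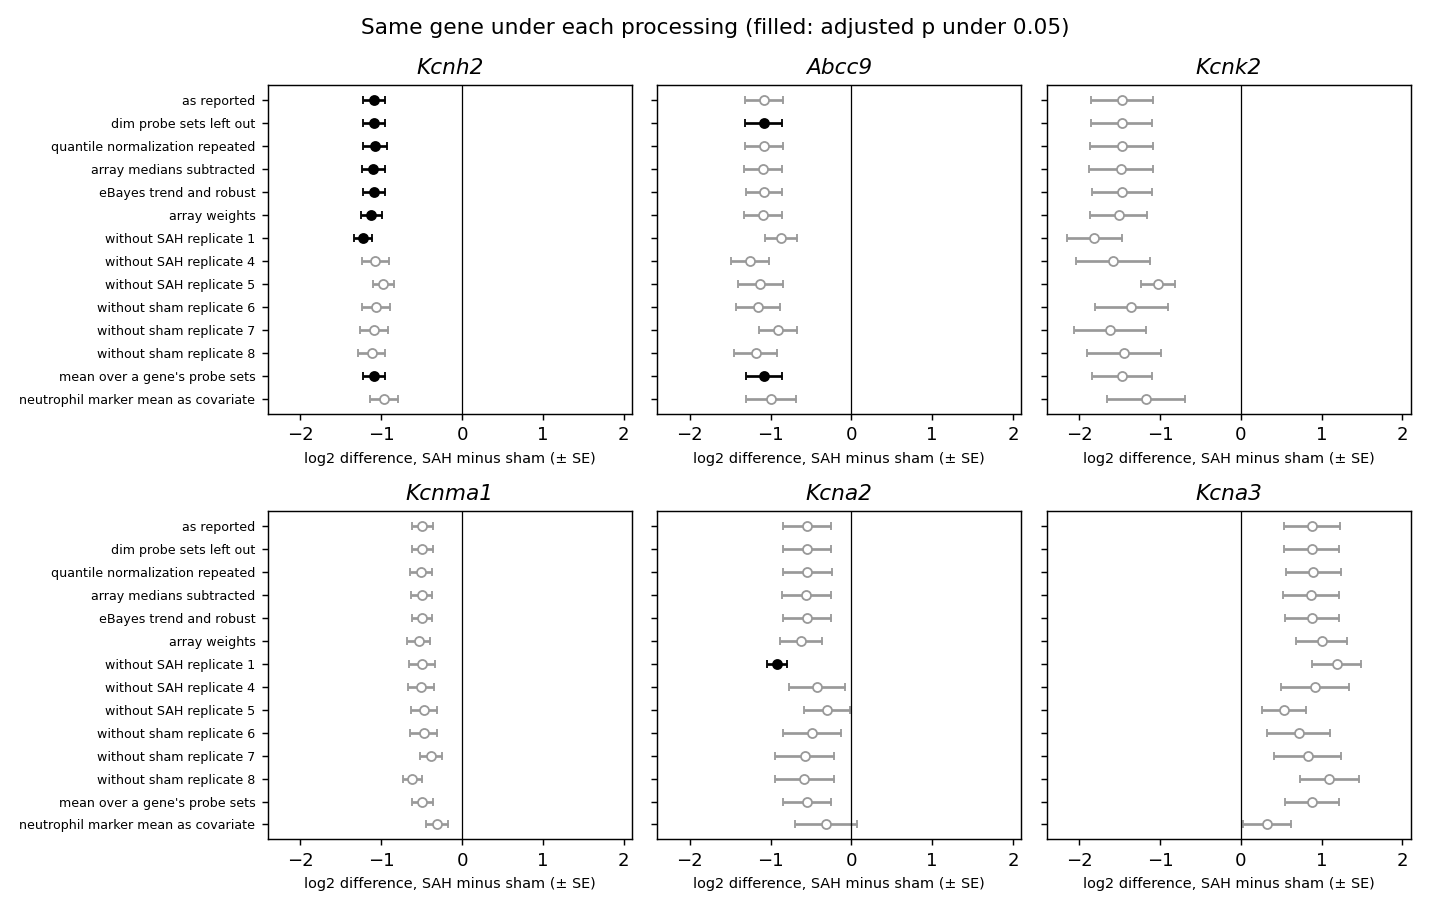
Log2 difference, SAH minus sham, with its SE for 6 potassium channel genes as reported and under 13 other processings listed down the page, filled where the limma adjusted p is under 0.05. Kcnh2 stays between -1.22 and -0.97 and loses its call in 6 fits, Abcc9 gains a call in 2, Kcna2 in 1, and Kcnk2, Kcnma1 and Kcna3 in none.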

How the data were processed

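RNA from cerebral arteries was measured on 6 Affymetrix rat arrays, 3 from SAH and 3 from sham-operated rats, grouped by the sample titles. The deposited values are log2 expression values that the authors made with Affymetrix Expression Console 1.1.2 and RMA, per the submitters' processing notes (its settings: not given in the sources used here). They were used without further normalization. Of 36685 probe sets 190 Affymetrix controls were set aside and 36495 tested. Platform annotation, with symbols updated through the RefSeq GRCr8 gene table (18394 of 18511 single-gene probe sets matched), named 1 gene for 18511, several for 575 and none for 17409. 

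The 2 groups were compared by a two-sided limma fit (version 3.58.1, under R 4.3.3) that had no covariates. Its p-values were adjusted by Benjamini and Hochberg's method across the 36495 probe sets, at a threshold of 0.05. The fit was tested on simulated data. Marker means were compared by exact two-sided permutation. Genes named are each called member, the 12 members of smallest p above the background mark, the smallest p of each family and an arterial panel; others named were chosen after their values were seen, as were the choroid plexus and leptomeningeal lists. The members and lists were chosen with earlier results of these data known. Promoters came from RefSeq. Alternatives were a filter on dim probe sets, 2 other normalizations, a robust, trended eBayes step, weights per array, 2 other thresholds, each array left out, the mean over a gene's probe sets, and a neutrophil covariate. The number of arrays limits the precision.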

Additional observations from a re-analysis of the deposited data

How the results depend on the processing

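The number of potassium channel genes called was 1 as reported and was also 1 after a repeated quantile step, after centring arrays on their medians, with a robust, trended eBayes step, with weights per array, at an adjusted p under 0.10 and with an added minimum log2 difference of 1. It was 2 with dim probe sets left out and 2 with the mean over a gene's probe sets, where fewer features were tested and Abcc9 was added to Kcnh2, and 0 with the neutrophil covariate, where 6 members had an unadjusted p under 0.05 in limma. With an array left out it ranged from 0 to 2: it was 2 without SAH array 1, where Kcna2 joined Kcnh2, and 0 in limma without SAH array 4 or 5 or any sham array, with 10 to 18 members at an unadjusted p under 0.05 over the 6 fits. The number over all genes was 235 as reported, 236 after the repeated quantile step and 208 after centring. It was 672 with dim probe sets left out, 363 with the robust, trended eBayes step, 373 with weights per array, 695 with the mean over a gene's probe sets, 23 with the neutrophil covariate, 530 at an adjusted p under 0.10, 155 with the added minimum difference, and 29 to 670 with an array left out, the lowest without sham array 6 and the highest without SAH array 1. The causes of these moves were not tested. Kcnj2, Kcnj12, Kcnj11, Kcne4 and Kcnn4 changed sign in some of these fits and passed in none. No paired analysis was run because the labels give no pairing of the arrays. Signal near background limits what can be said of the 46 genes so marked.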
